A study of Mus musculus with 6 samples.

Results

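The 32 genes described here make or regulate cholesterol and fatty acids, and they were taken by name from the genes on a mouse expression array. A probe belonged to the set when its gene name in the scanner files equalled 1 of the 32 listed names, and each gene was read from its brightest probe. All 32 were measured, out of 22096 genes tested in all. The cholesterol list holds 22 genes and the fatty acid list holds 10. The rule matched genes by name, but the list was drawn up with earlier results of these data known. The probe of each gene was chosen by its brightness on these arrays.

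Cholesterol is built from acetyl-CoA through mevalonate, isoprenoid units, squalene and lanosterol, and fatty acids are built from the same acetyl-CoA through malonyl-CoA. Transcription factors called SREBPs switch both routes on. When the membrane of the endoplasmic reticulum is rich in sterol, the INSIG proteins hold the SREBP escort SCAP there, and when sterol is low SCAP carries the SREBPs to the Golgi, where proteases release the active factor. In macrophages and other myeloid cells, sterol sensed by the LXR receptors turns on export of cholesterol and, through SREBP-1, the synthesis and desaturation of fatty acids.

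The RNA was that of M-MDSCs, the monocytic form of myeloid-derived suppressor cells, which restrain T cells. They were sorted by flow cytometry out of bone marrow or lung of C57BL/6 mice. There were 4 groups of 3 samples, mock and treated in each tissue. Treated mice received azacytidine, which blocks DNA methyltransferases, plus entinostat, which blocks class I histone deacetylases, and mock mice received vehicle. The labels give an age of 6 to 8 weeks for mock mice only, while doses and times are not given in the sources used here. Each treated RNA was a pool of 3 to 6 mice and each mock RNA held 1 or 2 mice. On every array mock RNA carried Cy3 and treated RNA carried Cy5, and no array was labelled the other way. Treatment and dye therefore cannot be told apart. The arrays of a tissue shared 1 slide and the other tissue had another, so slide and tissue cannot be told apart.

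Upstream DNA of this pathway is known for the sterol response element that SREBPs bind and for the CCAAT box bound by the factor NF-Y. The RefSeq promoter table (GRCm38.p6) held an entry for 25 of the 32 genes, and Sqle, Fdps, Fdft1, Stard4, Scd1, Scd2 and Fads1 were without one. Of the matched genes, the upstream windows of Hmgcs1, Insig1 and Idi1 are shown. Hmgcs1 alone held a sterol element core, and the others are examples picked from the genes whose expression changed with treatment. Other matched genes that changed are not shown, and some of them, such as Acly and Acaca, held no CCAAT box in the stretch searched. Capitals mark the sterol element core TCACNCCAC (Hmgcs1 only) and each ATTGG, which is the CCAAT box on the opposite strand, with 3 in Hmgcs1, 1 in Insig1 and 2 in Idi1. The windows lie at chr13:119690101-119690328 on the plus strand for Hmgcs1, from 250 to 23 bases before the gene start, at chr5:28071178-28071218 on the plus strand for Insig1, from 234 to 194 bases before it, and at chr13:8885543-8885605 on the plus strand for Idi1, from 63 to 1 bases before it.
Hmgcs1: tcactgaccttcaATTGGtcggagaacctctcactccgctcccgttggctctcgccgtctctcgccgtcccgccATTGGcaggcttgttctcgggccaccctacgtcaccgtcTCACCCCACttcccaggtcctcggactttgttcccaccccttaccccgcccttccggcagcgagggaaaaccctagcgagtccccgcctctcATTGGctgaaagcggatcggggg
Insig1: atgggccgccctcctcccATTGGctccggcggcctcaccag
Idi1: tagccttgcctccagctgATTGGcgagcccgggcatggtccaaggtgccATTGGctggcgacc

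The 250 bases before each gene start were searched on both strands for 4 motifs. CCAAT was found for 16 of 18 matched cholesterol genes (88.9%) and 3 of 7 matched fatty acid genes (42.9%), against 37.5% of all 27025 genes of the promoter table. The Sp1 box GGGCGG was found for 17 of 18 cholesterol genes and 3 of 7 fatty acid genes, against 35.4% of all genes. The E-box CACGTG was found for 4 of 18 and 1 of 7, against 6.86%, and the sterol element core for 1 of 18 and 0 of 7, against 1.22%. No match of 1 motif overlapped a match of another in these promoters. These are matches of letters, and binding was not measured.

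Of the spots on an array, 49.9% to 62.8% gave a mock signal well above background and 55.1% to 69.5% a treated one, and precision is limited by the 3 arrays of a tissue. Nothing in the labels says how the replicates were kept apart beyond calling them biological, so p-values measure the spread between these samples. Itgam, a surface marker of myeloid cells, was well above background in both channels of every array, and Ccr2, the chemokine receptor of monocytes, fell in treated cells of both tissues (log2 ratio -0.84 ± 0.28 in bone marrow and -1.12 ± 0.46 in lung, SD, n = 3). Of the 9 monocyte markers measured, 1 rose and 3 fell in treated bone marrow (summed normalized intensity 139494 to 149988 in mock and 136114 to 163447 in treated) and 3 rose and 2 fell in treated lung (146059 to 183260 and 200004 to 219936). Such sums, here and below, add linear intensities, so the brightest markers of a list weigh most in them. Named after their values were seen, Ly6c1 rose (0.65) and Csf1r (-1.14) and Cx3cr1 (-1.71) fell with Ccr2 in bone marrow, whereas in lung Csf1r (0.76), Fcgr3 (0.98) and Itgam (0.64) rose and Ptprc (-0.45) fell with Ccr2. Over all genes tested, with the threshold given below, 7.25% rose and 7.14% fell in treated bone marrow. In treated lung 20.0% rose and 14.0% fell. Markers of other cells also moved in treated lung. All 10 macrophage markers rose there, with a summed normalized intensity of 33575 to 50297 in mock and 161528 to 222983 in treated lung, as did 12 of 13 alveolar macrophage markers (109813 to 125929 and 145448 to 265599) and 9 of 10 endothelial markers (12123 to 16348 and 27249 to 33621). Among 14 lung epithelial markers 7 rose and 1 fell (28916 to 44876 and 72386 to 105858), among 9 neutrophil markers 7 rose (29355 to 60952 and 74523 to 150237), and among 9 B cell markers 1 rose and 7 fell (8931 to 12349 and 3376 to 5067). In treated bone marrow the 10 macrophage markers had a limma adjusted p of 0.0792 or more (summed intensity 16760 to 20177 in mock and 8625 to 14268 in treated). Most of the mock sum came from Apoe (levels 13.64 to 13.98), which read -0.86 (adjusted p = 0.0792), while the other macrophage markers read from -0.24 to 0.17. There 4 of 13 alveolar macrophage markers rose (111869 to 136917 and 121498 to 143763), namely Spp1 (1.07), Cd9 (0.71), Fabp5 (0.67) and Il1rn (0.29), also named after their values were seen. The part of these shifts in the values of either tissue below was not tested, and fewer cells of a type and less RNA per cell cannot be told apart in such samples.

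In treated bone marrow Scd2, Fads1 and Fads2, 3 of the 4 desaturases, and 3 enzymes of the sterol route were higher, while most of the 32 genes did not pass. A gene passed when limma's moderated test gave an adjusted p (Benjamini-Hochberg over all genes tested) below 0.05, and every signed value is a log2 ratio of treated over mock, with the direction taken from the labelled dyes. The deposited matrices are headed mock over treated, the opposite direction. Of the 32 genes 6 rose and 2 fell, and 24 did not pass. That is 25.0% of them, against 14.4% of all genes tested, with 18.8% higher against 7.25% of all genes and 6.2% lower against 7.14% of all genes. In the fatty acid list 3 of 10 rose and 1 fell, with a median log2 ratio of 0.106, and in the cholesterol list 3 of 22 rose and 1 fell, with a median of 0.098. The median of all genes was 0.024.

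Scd2, a stearoyl-CoA desaturase that places the first double bond in saturated fatty acids, changed most in bone marrow. Its log2 ratios were 1.13, 1.43 and 0.86 on bone marrow arrays 1, 2 and 3, a mean of 1.14 ± 0.29 (SD, n = 3) or 2.20-fold, with limma adjusted p = 0.00291. All of them lay well above 0. The probe sits on chromosome 19 from 44381024 to 44381083 of mm9, on the plus strand. Fads1, the delta-5 desaturase of polyunsaturated fatty acids, gave 0.53, 0.53 and 0.83 (mean 0.63 ± 0.17, SD, n = 3, limma adjusted p = 0.00711), read from chromosome 19, 10270530 to 10270589. Fads2, the delta-6 desaturase that acts before it, gave 0.33, 0.69 and 1.09 (mean 0.70 ± 0.38, SD, n = 3, limma adjusted p = 0.0144), read from chromosome 19, 10163229 to 10163288. The 3 desaturases were thus higher on each bone marrow array, with the widest scatter for Fads2, which failed the threshold when bone marrow replicate 2 was left out (adjusted p = 0.0764). Signals as processed by the scanner software gave means of 1.36 for Fads1 and 2.05 for Fads2. A second Fads2 probe read 0.40 ± 0.30 in bone marrow.

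At the head of fatty acid synthesis, Acly and Acaca did not rise with the desaturases. Acly, ATP citrate lyase, which makes cytosolic acetyl-CoA, fell on each bone marrow array, with log2 ratios of -0.47, -0.44 and -0.21 (mean -0.37 ± 0.14, SD, n = 3, limma adjusted p = 0.0197). Its direction turned with median centring in place of loess (0.20, adjusted p = 0.701), it no longer passed when bone marrow replicate 1 (adjusted p = 0.0799) or 2 (0.114) was left out or with scaling between arrays (0.0578), and a second probe read -0.10 ± 0.06. Acaca, the acetyl-CoA carboxylase that makes malonyl-CoA, had ratios of 0.08, -0.09 and 0.12. Fasn, the fatty acid synthase, had ratios of 0.01, -0.01 and 0.22, and its probe was well above background on 0 of 3 mock and 2 of 3 treated bone marrow samples. Acaca scattered around 0, while the Fasn ratios were read near background and processed signals gave 0.55 for it (adjusted p = 0.147). Scd1, the main stearoyl-CoA desaturase of liver and fat, gave -0.01, 0.25 and 0.16, but it was not well above background in either channel of any bone marrow array, so these ratios carry no measured change. Srebf1, which encodes SREBP-1, had ratios of -0.03, 0.11 and 0.14. Elovl5 and Elovl6, which lengthen fatty acids, were at 0.01 and 0.18 on average and did not pass (adjusted p = 0.977 and 0.326).

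**Figure D1:**
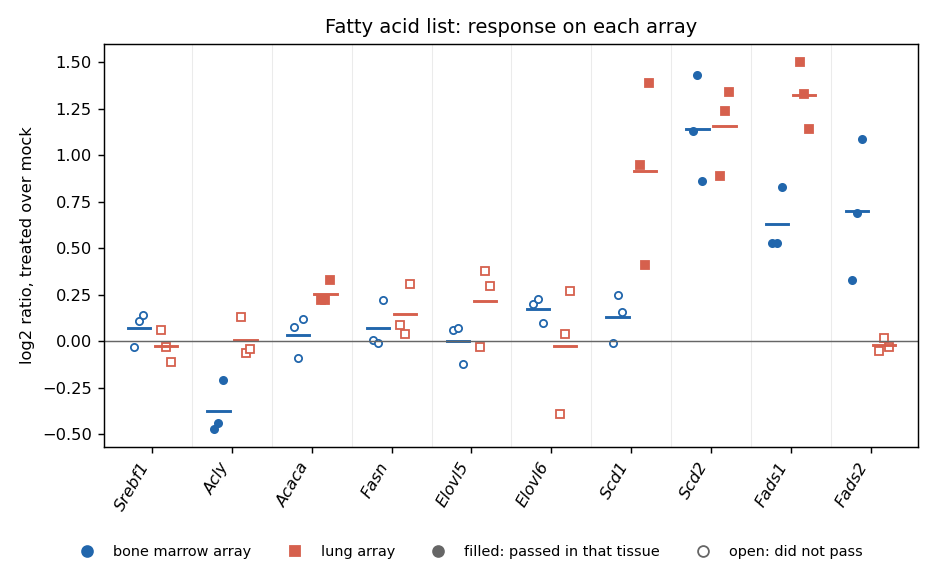
Log2 ratio of treated over mock (vertical axis) of the 10 fatty acid genes, ordered from SREBP-1 and the first enzymes to the desaturases. Each point is 1 array (circles bone marrow, squares lung), short lines are means of 3 arrays, and filled points belong to genes that passed in that tissue. Scd2 lies between 0.86 and 1.43 on all 6 arrays, Fads2 lies above 0 on all 3 bone marrow arrays and between -0.05 and 0.02 in lung, and the lung points of Fads1 lie above its bone marrow points.

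Within the sterol route of bone marrow the changes fell on scattered steps. Sqle, squalene epoxidase, the first oxygen-dependent step, had log2 ratios of 0.78, 0.72 and 0.39 (mean 0.63 ± 0.21, SD, n = 3, limma adjusted p = 0.00989), read from chromosome 15, 59162688 to 59162747. Idi1, the isomerase of isopentenyl diphosphate, had 0.46, 0.53 and 0.60 (mean 0.53 ± 0.07, SD, n = 3, limma adjusted p = 0.00306), read from chromosome 13, 8891524 to 8891583. Pmvk, phosphomevalonate kinase, had 0.64, 0.46 and 0.29 (mean 0.46 ± 0.17, SD, n = 3, limma adjusted p = 0.0103), and its second probe read 0.39 ± 0.12. These enzymes were higher on every bone marrow array, with the tightest agreement for Idi1. Sqle no longer passed when bone marrow replicate 1 (adjusted p = 0.0522) or 2 (0.0653) was left out, nor did Pmvk when replicate 2 was (0.0578), and with scaling between arrays neither passed.

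Among the regulators, Insig1, which retains the SREBPs in the endoplasmic reticulum, was the one that passed in bone marrow. It fell on each array, with log2 ratios of -0.18, -0.34 and -0.38 (mean -0.30 ± 0.11, SD, n = 3, limma adjusted p = 0.032), read from chromosome 5, 28404246 to 28404305. Leaving out bone marrow replicate 1, 2 or 3 (adjusted p = 0.0513, 0.159 and 0.127) or lung replicate 2 (0.053) took it past the threshold, and with processed signals the mean was -0.74. Insig2, its paralog, gave 0.07, 0.19 and 0.37. Scap gave 0.03, 0.08 and 0.43, and Srebf2, which encodes the SREBP that favours cholesterol genes, gave -0.04, 0.20 and -0.03. None of these 3 passed. Hmgcs1, the cytosolic HMG-CoA synthase, gave -0.08, 0.08 and -0.07. The 18 cholesterol genes that did not pass had means from -0.17 to 0.27 (adjusted p from 0.0904 to 0.974), with Fdft1 the most scattered of the higher ones at 0.54, 0.48 and -0.20. Of these 18, Cyp51 (1.79, adjusted p = 0.0107) and Nsdhl (-0.83, 0.00727) passed with processed signals, and Cyp51 (0.43, 0.00913) and Acat2 (0.29, 0.0415) passed with the background of negative control spots.

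When each bone marrow array was centred on its median in place of loess, no gene of the array passed in limma (3951 had an unadjusted p under 0.05) and over all genes the median went from 0.024 to 0.201. Under that setting Scd2 read 1.64, Sqle 1.08, Pmvk 1.01 and Idi1 0.98 (adjusted p = 0.255 for Scd2 and 0.277 for the others).

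In treated lung more genes changed, with large rises in Fads1, Scd2, Scd1 and Insig2 and a fall in Insig1. Of the 32 genes 12 rose and 1 fell, which is 40.6% of them against 34.0% of all genes tested, with 37.5% higher against 20.0% of all genes and 3.1% lower against 14.0%. In the cholesterol list 8 of 22 rose and 1 fell, with a median log2 ratio of 0.117, and in the fatty acid list 4 of 10 rose, with a median of 0.182. The median of all genes was 0.014. Among the cholesterol genes other than Insig2, the rises lay between 0.25 and 0.45.

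Fads1 gave log2 ratios of 1.50, 1.33 and 1.14 on lung arrays 1, 2 and 3, a mean of 1.32 ± 0.18 (SD, n = 3) or 2.50-fold, with limma adjusted p = 0.00012. Scd2 gave 0.89, 1.24 and 1.34 (mean 1.16 ± 0.24, SD, n = 3, or 2.23-fold, limma adjusted p = 0.000549). Scd1 gave 0.95, 0.41 and 1.39 (mean 0.91 ± 0.49, SD, n = 3, or 1.88-fold, limma adjusted p = 0.00433), read from chromosome 19, 44469387 to 44469446. All 3 desaturases were higher on each lung array, and Scd1 was the least even of them. Fads2 gave -0.05, 0.02 and -0.03, but it was well above background on 0 of 3 mock and 1 of 3 treated lung samples, so no change could be read there, while its second probe read 0.24 ± 0.10 and processed signals gave 0.65 (adjusted p = 0.0451). Acaca gave 0.22, 0.22 and 0.33 (mean 0.25 ± 0.06, SD, n = 3, limma adjusted p = 0.0205). Of its 3 other probes, 1 read 0.28 ± 0.07 and both others read 0.00, the mean of its probes was 0.13 (adjusted p = 0.111), and the gene no longer passed when lung replicate 2 (adjusted p = 0.0693) or 3 (0.116) was left out. Fasn gave 0.09, 0.04 and 0.31, Acly 0.13, -0.06 and -0.04, and Srebf1 0.06, -0.03 and -0.11, and none of these passed. Elovl5 averaged 0.22 ± 0.21 and Elovl6 -0.03 ± 0.34 (adjusted p = 0.0997 and 0.881).

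The INSIG genes moved in opposite directions in lung. Insig1 gave log2 ratios of -0.84, -0.74 and -0.95, a mean of -0.84 ± 0.11 (SD, n = 3), 1.79-fold lower, with limma adjusted p = 0.000221. Insig2 gave 0.91, 0.57 and 0.59 (mean 0.69 ± 0.19, SD, n = 3, or 1.61-fold, limma adjusted p = 0.00129), read from chromosome 1, 123201085 to 123201144. No lung array of one overlapped those of the other. The second Insig2 probe read 0.12 ± 0.09 in lung, and the mean of both probes was 0.41 (adjusted p = 0.00718). Srebf2 gave 0.38, 0.21 and 0.31 (mean 0.30 ± 0.09, SD, n = 3, limma adjusted p = 0.0153), while its second probe read -0.32 ± 0.21, so that the mean of both was -0.01 (adjusted p = 0.907). Leaving out lung replicate 1 (0.0627) or 3 (0.0675) also ended its call. Scap gave 0.33, 0.20 and 0.15 and did not pass (limma adjusted p = 0.0864).

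The enzymes of the sterol route that rose in lung stood at several steps. Fdft1, squalene synthase, gave 0.58, 0.44 and 0.31, a mean of 0.45 ± 0.14 (SD, n = 3, limma adjusted p = 0.0428). Its second probe read -0.12 ± 0.11, the mean of both was 0.16 (adjusted p = 0.301), the call also ended with no filter on dim probes (0.0525), the background of negative control spots (0.067) or scaling between arrays (0.175), and leaving out lung replicate 1, 2 or 3 (adjusted p = 0.15, 0.134 and 0.0725) or bone marrow replicate 2 (0.0596) ended its call. Lss, lanosterol synthase, gave 0.71, 0.23 and 0.24 (mean 0.40 ± 0.27, SD, n = 3, limma adjusted p = 0.0178), with array 1 well above the others. Without lung replicate 1 its mean was 0.24 (adjusted p = 0.04), and in a fit of lung alone it no longer passed (0.0666). Pmvk gave 0.31, 0.34 and 0.28 (mean 0.31 ± 0.03), Dhcr7, which completes cholesterol from 7-dehydrocholesterol, 0.50, 0.15 and 0.26 (mean 0.30 ± 0.18), and Mvk, mevalonate kinase, 0.41, 0.23 and 0.25 (mean 0.30 ± 0.10). Tm7sf2, a sterol reductase, averaged 0.25 ± 0.10 (SD, n = 3, limma adjusted p = 0.0164 for Pmvk, 0.0193 for Dhcr7, 0.00949 for Mvk and 0.0184 for Tm7sf2). All were above 0 on each lung array. The Mvk call stood when any replicate was left out, Pmvk no longer passed when lung replicate 2 (adjusted p = 0.0814) or 3 (0.0558) was left out or with scaling between arrays (0.27), and Dhcr7 and Tm7sf2 did not without lung replicate 1 (0.0756 and 0.0601) or 3 (0.0582 and 0.113). Dhcr7 also failed in a fit of lung alone (0.0614) and in the authors' deposited log2 ratios (0.0526), and Tm7sf2 with the mean of both its probes (0.19, adjusted p = 0.0519).

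Other sterol enzymes of lung did not pass. Sqle gave 0.27, 0.09 and 0.48 (mean 0.28 ± 0.20, limma adjusted p = 0.0684), and Hmgcs1 gave 0.35, -0.28 and -0.27, with array 1 on the other side of 0. Idi1 gave -0.16, -0.15 and -0.08 (mean -0.13 ± 0.05, adjusted p = 0.13). Acat2 (an acetyl-CoA acetyltransferase at the start of the route), Mvd (mevalonate diphosphate decarboxylase), Fdps (farnesyl diphosphate synthase), Cyp51, Sc4mol (now Msmo1), Nsdhl and Hsd17b7 (which trim the methyl groups of lanosterol), Ebp (a sterol isomerase) and Stard4 (a carrier of cholesterol within the cell) also did not. The 13 cholesterol genes that did not pass had means from -0.14 to 0.28 (adjusted p from 0.0684 to 0.918). For Stard4 the probe shown read 0.06 ± 0.05 and a second one -0.29 ± 0.03, and for Nsdhl they read 0.10 ± 0.16 and -0.14 ± 0.17.

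**Figure D2:**
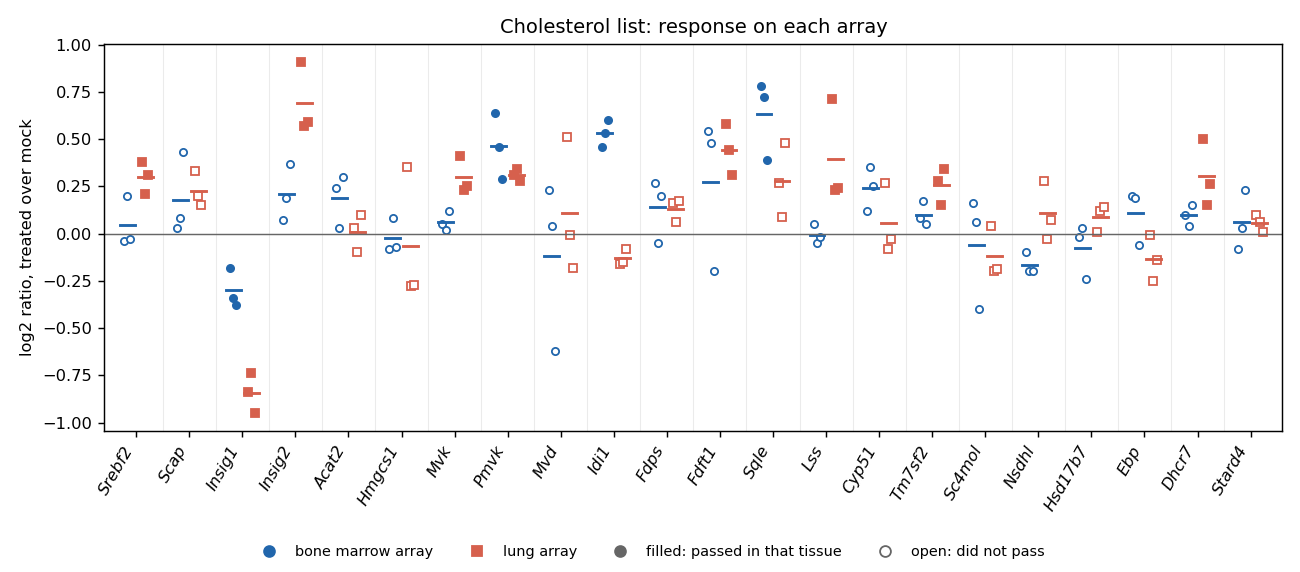
Log2 ratio of treated over mock (vertical axis) of the 22 cholesterol genes, with regulators first and then enzymes in the order of the route. Circles are bone marrow arrays, squares are lung arrays, short lines are means of 3 arrays and filled points belong to genes that passed in that tissue. Insig1 is below 0 on all 6 arrays, Idi1 lies between 0.46 and 0.60 in bone marrow and between -0.16 and -0.08 in lung, and most other genes lie close to 0.

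With processed signals Insig1, Insig2 and Lss were the cholesterol genes that passed in lung, 3 in place of 9, and Lss read 0.68 in place of 0.40. With median centring 963 genes of the array passed in lung, over all genes the median went from 0.014 to 0.122, and of the 32 genes Fads1 (1.55, adjusted p = 0.0164) and Insig1 (-0.62, 0.0439) still passed, while Scd2 (1.37, 0.0525), Scd1 (1.14, 0.0597) and Insig2 (0.91, 0.109) did not.

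Of the 8 genes that passed in bone marrow and the 13 that passed in lung, 4 passed in both, that is 4 of 8 and 4 of 13 (30.8%). Over all genes tested 1609 passed in both (7.28%), which is 50.6% of the bone marrow calls and 21.4% of the lung calls. Scd2, Fads1 and Pmvk rose in both tissues and Insig1 fell in both. The tissues share no sample. A further 15 genes passed in neither.

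Whether the response itself differed between tissues was tested as the lung ratio minus the bone marrow ratio. Of the 32 genes 6 passed, 3 with the lung ratio higher and 3 with it lower, which is 18.8% against 15.2% of all genes, with 9.4% higher against 9.78% of all genes and 9.4% lower against 5.46%. Idi1 differed by -0.66 (limma adjusted p = 0.00351), being high in treated bone marrow and slightly below 0 in lung. Insig1 differed by -0.54 (limma adjusted p = 0.0127), since it fell further in lung. Fads1 differed by 0.70 (limma adjusted p = 0.0134), with each lung array above each bone marrow array. Insig2 differed by 0.48 (limma adjusted p = 0.0448), Acly by 0.38 (0.0497) and Fads2 by -0.72 (0.0354). The ratios of the tissues did not overlap for these genes, but they were picked on the same values, so this adds no support. The Fads2 value sets bone marrow against a lung level at background.

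Several of these differences rested on few arrays or on the processing. With processed signals the difference was 0.16 for Fads1 (adjusted p = 0.7), 0.37 for Insig2 (0.158) and -1.40 for Fads2 (0.0188), and Insig1 gave -0.42 (0.109), while Cyp51 (-1.80, 0.0444) and Nsdhl (0.83, 0.0328) passed there. The Fads1 difference did not pass without bone marrow replicate 1 (adjusted p = 0.0515) or 2 (0.0588). Those of Insig2 and Acly did not pass without bone marrow replicate 1 or 2 or without any one of the lung replicates (adjusted p from 0.0646 to 0.13 for Insig2 and from 0.0891 to 0.151 for Acly), and that of Fads2 without bone marrow replicate 2 (0.108) or 3 (0.0507) or any lung replicate (0.0696, 0.0806 and 0.0735). The mean of both probes gave 0.33 for Insig2, 0.14 for Acly and -0.44 for Fads2 (adjusted p = 0.0905, 0.257 and 0.101), and the second Insig2 probe read -0.05 ± 0.17 in bone marrow against 0.12 ± 0.09 in lung. The Acly difference also failed with no filter or a stricter filter on dim probes (0.0504 and 0.0509), scaling between arrays (0.147), processed signals (0.127) and the authors' deposited log2 ratios (0.0646), and that of Fads1 with scaling between arrays (0.126). Idi1 passed under each alternative run except median centring. For Scd2 the difference was 0.02 (adjusted p = 0.96), for Scd1 0.78 (0.0578, against a bone marrow ratio at background) and for Sqle -0.35 (0.136).

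**Figure D3:**
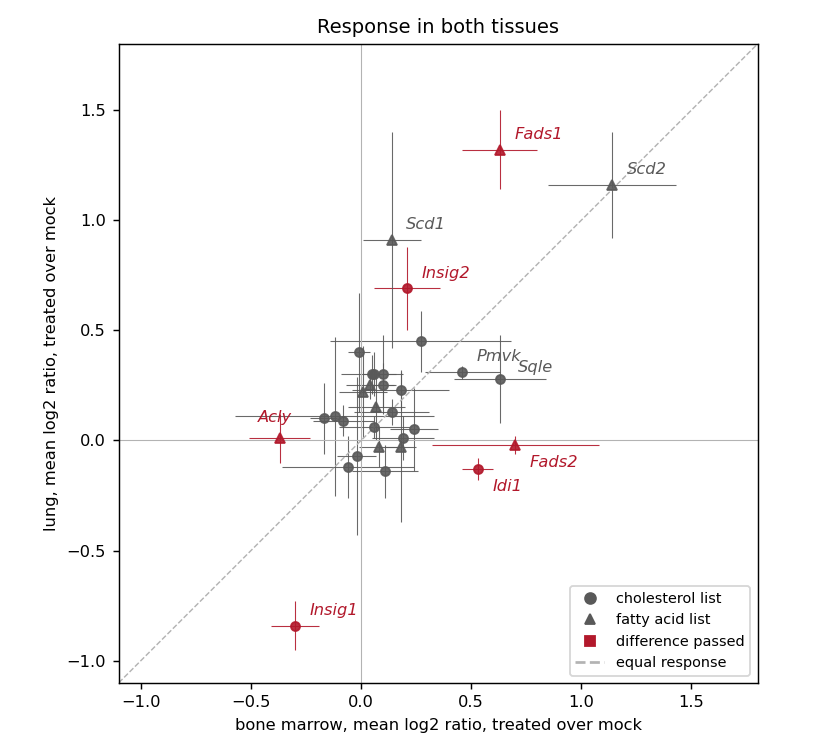
Mean log2 ratio of treated over mock in bone marrow (horizontal axis) against lung (vertical axis) for the 32 genes, with bars of 1 SD over 3 arrays in each tissue. Circles are cholesterol genes, triangles fatty acid genes, red marks the 6 genes whose difference between tissues passed, and the dashed line marks equal response. Scd2 lies near the line at 1.14 and 1.16, Fads1 and Insig2 lie above it, and Idi1, Fads2 and Insig1 lie below it.

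The tissues already differed in mock cells, in the 32 genes as over the whole array. Levels are log2 intensities of the mock channel after normalization, and the level of 1 probe cannot be set against that of another. Of the 32 genes 24 passed, 12 higher and 12 lower in lung, which is 75.0% against 66.0% of all genes, with 37.5% higher against 29.6% of all genes and 37.5% lower against 36.4%. Cell type markers differed as well. Of 9 neutrophil markers 7 were lower in mock lung (summed normalized intensity 373601 to 381588 in mock bone marrow and 29355 to 60952 in mock lung), and higher there were 9 of 10 macrophage markers (16760 to 20177 and 33575 to 50297), 9 of 10 endothelial markers (2624 to 2718 and 12123 to 16348) and all 9 B cell markers (1722 to 1891 and 8931 to 12349). Of 13 alveolar macrophage markers 9 were higher and 2 lower in mock lung (111869 to 136917 in mock bone marrow and 109813 to 125929 in mock lung). Most of these sums came from Chil3, 1 of the 2 lower ones (-0.39), at 16.64 to 16.95 in mock bone marrow. Among the 9 higher ones were Marco (5.86) and Plet1 (3.53), so the similar sums do not mean similar levels of the other markers. Among 14 lung epithelial markers 8 were higher and 2 lower (22484 to 25695 and 28916 to 44876). The 2 lower ones, Napsa (-1.36) and Abca3 (-0.41), made up most of the bone marrow sum. Among the 8 higher ones, Sftpc (6.64) was not well above background on any mock bone marrow array. The part of these marker differences in those of the 32 genes was not tested. In the cholesterol list 8 of 22 were higher in lung and 9 lower, with a median difference of -0.027, and in the fatty acid list 4 of 10 were higher and 3 lower, with a median of 0.151. The median of all genes was -0.038. With median centring of the mock channel alone the median of all genes was 0.305, and the split became 15 higher and 1 lower in the cholesterol list and 8 higher and 1 lower in the fatty acid list. The list medians under that setting were 0.637 and 0.882, so that they lay further above the median of all genes than with the main normalization, and the direction of many mock differences depends on the centring.

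Scd1 had the largest difference among the 32. Its mock levels were 6.42, 6.23 and 6.36 in bone marrow, where it was not well above background, and 8.00, 8.21 and 7.73 in lung, a difference of 1.65 (limma adjusted p = 1.43e-05). Against the background level of the bone marrow arrays, the mean of the higher of the dimmest signal above background and the probe's own, lung was at least 2.93-fold higher. Fads2 ran the other way, with 7.24, 7.15 and 7.35 in bone marrow and 6.61, 6.55 and 6.55 in lung, where it was not well above background, so that bone marrow was at least 1.59-fold higher for this probe (difference -0.68, limma adjusted p = 0.000125). The mean of both Fads2 probes gave a smaller difference of -0.35 (adjusted p = 0.00558). Neither pair of groups overlapped. Scd2 was at 10.34, 10.36 and 10.55 in bone marrow and 10.27, 10.21 and 10.04 in lung (difference -0.24, limma adjusted p = 0.049), which no longer passed when any bone marrow replicate or lung replicate 2 or 3 was left out (adjusted p from 0.056 to 0.17), and median centring turned it to 0.94. Fads1 was at 7.46, 7.76 and 7.58 against 7.82, 7.88 and 7.98 (difference 0.29, limma adjusted p = 0.0244), and its call needed bone marrow replicates 1 and 3 and lung replicates 2 and 3 (leaving 1 out, from 0.0597 to 0.0833).

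The other fatty acid genes differed between the mock tissues in both directions. Srebf1 was at 7.39, 7.11 and 7.10 in bone marrow and 7.51, 7.55 and 7.65 in lung, a difference of 0.37 (limma adjusted p = 0.0101). Elovl5 was at 10.42, 10.36 and 10.53 against 10.80, 10.83 and 10.78, also a difference of 0.37 (limma adjusted p = 0.00273). Acaca was lower in lung, at 10.05, 10.41 and 10.29 against 9.82, 9.81 and 9.72 (difference -0.46, limma adjusted p = 0.00416), and read 0.58 with median centring. Acly, ATP citrate lyase, depended on the probe. Its brightest probe, at 12.56, 12.59 and 12.79 against 12.47, 12.57 and 12.47, overlapped between tissues and did not pass (difference -0.14, adjusted p = 0.171), whereas the mean of both probes was lower in lung (difference -0.77, adjusted p = 2.13e-05) and median centring gave 1.29 (0.000528). Fasn, at 6.72, 6.88 and 7.00 against 7.04, 6.85 and 6.74, overlapped and did not pass. Its probe was well above background on 0 of 3 mock bone marrow samples and 3 of 3 mock lung samples. Elovl6 differed by 0.31 and did not pass (limma adjusted p = 0.16).

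The INSIG genes were both higher in mock lung. Insig1 was at 7.61, 7.78 and 7.69 in bone marrow and 8.56, 8.69 and 8.84 in lung, a difference of 1.00 or 2.00-fold (limma adjusted p = 4.22e-05). Insig2 was at 8.03, 8.02 and 8.18 against 8.70, 8.94 and 8.87 (difference 0.76, limma adjusted p = 0.000146). The treated fall of Insig1 in lung thus started from a higher mock level, and treated levels were 7.44, 7.44 and 7.31 in bone marrow and 7.71, 7.96 and 7.89 in lung. Srebf2 and Scap were lower in mock lung, Srebf2 at 9.14, 8.98 and 9.04 against 8.53, 8.65 and 8.79 (difference -0.40, limma adjusted p = 0.00451) and Scap at 10.87, 10.94 and 10.95 against 10.68, 10.51 and 10.34 (difference -0.41, limma adjusted p = 0.0057). With median centring both were higher in lung instead, by 0.38 and 0.77, and the mean of both Srebf2 probes was 0.01.

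The sterol enzymes differed between the mock tissues in both directions. Sc4mol was at 9.91, 10.33 and 10.73 in bone marrow and 11.35, 11.33 and 11.33 in lung (difference 1.01, limma adjusted p = 0.0015), and Sqle at 8.90, 9.35 and 9.61 against 10.31, 10.16 and 9.97 (difference 0.86, limma adjusted p = 0.00309). Cyp51 (0.75), Nsdhl (0.70), Idi1 (0.41) and Dhcr7 (0.34) were also higher in lung (adjusted p from 0.000193 to 0.0305). Cyp51 was above background in 1 of 3 mock bone marrow samples, the mean of both Nsdhl probes gave 0.35 (0.0032), Idi1 no longer passed without bone marrow replicate 1 (0.06) or 2 (0.0652), nor did Dhcr7 without bone marrow replicate 1 or 2 or lung replicate 1 or 2 (from 0.0564 to 0.0734). Lower in lung were Ebp, at 13.39, 13.45 and 13.54 against 12.41, 12.51 and 12.40 (difference -1.02, limma adjusted p = 1.12e-05), and Fdps, at 12.08, 12.62 and 12.22 against 11.57, 11.31 and 11.29 (difference -0.91, limma adjusted p = 0.000883). Both groups of arrays stood clear of each other in these genes. Acat2 (-0.74), Tm7sf2 (-0.59), Mvk (-0.53), Pmvk (-0.41) and Fdft1 (-0.29) were lower as well (adjusted p from 4.74e-05 to 0.0468), where Fdft1 no longer passed when bone marrow replicate 2 or 3 or any lung replicate was left out (from 0.0764 to 0.133). Of these 7, Acat2 alone stayed lower in lung with median centring, which gave 0.54 for Ebp, 0.44 for Fdps, 0.24 for Tm7sf2, 0.52 for Mvk, 0.91 for Pmvk and 0.48 for Fdft1. Hmgcs1, at 10.63, 10.71 and 11.07 against 10.74, 10.87 and 10.94, overlapped between tissues, and Hmgcs1, Lss, Hsd17b7, Mvd and Stard4 did not pass (differences from -0.16 to 0.08). For Stard4 the mean of both probes was -0.41 and passed (adjusted p = 0.00255), and with median centring Stard4 (0.44, 0.0139), Hmgcs1 (1.22, 0.00169) and Mvd (0.71, 0.00551) were higher in lung.

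**Figure D4:**
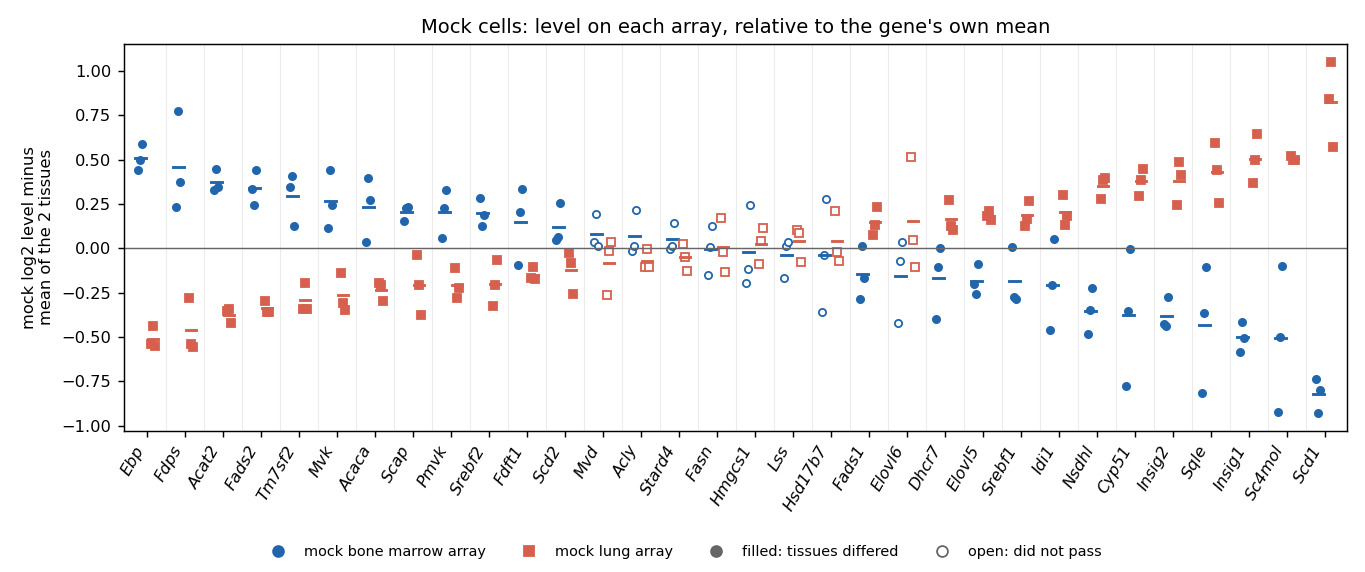
Mock log2 level of the 32 genes on each array minus the gene's own mean over the 2 tissues (vertical axis), ordered from the gene lowest in lung to the gene highest in lung. Circles are mock bone marrow, squares mock lung, short lines means of 3 arrays, and filled points mark genes whose tissues differed. Ebp is at the left end with a difference of -1.02 and Scd1 at the right end with 1.65.

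Genes around the synthesis routes were read from lists. The counts of these lists, here and below, are to be read beside the shares over all genes tested. Those were 7.25% higher and 7.14% lower in bone marrow, and 20.0% higher and 14.0% lower in lung. No list was tested as a set. Of 8 other sterol synthesis enzymes, 1 rose in bone marrow, Sc5d, a desaturase late in the route, at 0.61 ± 0.30 (SD, n = 3, limma adjusted p = 0.0156). In lung 2 fell, among them Ggps1, which makes geranylgeranyl diphosphate, at -0.29 ± 0.14 (SD, n = 3, limma adjusted p = 0.015). The list's medians were 0.040 in bone marrow and -0.065 in lung. Of 12 genes for SREBP processing and sterol sensing, 1 rose and 2 fell in bone marrow (median -0.126). There Mbtps1, the first protease that cuts the SREBPs, fell by 0.48 with an SD of 0.05 (limma adjusted p = 0.00475), Npc2, which moves cholesterol out of lysosomes, fell by 0.60 with an SD of 0.20 (0.00885), and Sec24d, of the coat of vesicles that leave the endoplasmic reticulum, rose by 0.42 with an SD of 0.15 (0.0198). In lung 2 of the 12 fell and none rose (median -0.056), Erlin1 by 0.66 with an SD of 0.04 (0.00136) and Rnf139 by 0.37 with an SD of 0.06 (0.00343), both tied to the degradation of proteins of the endoplasmic reticulum.

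Besides synthesis, uptake and export set how much sterol a cell holds. Of 6 uptake genes, 1 rose and 1 fell in bone marrow (median -0.110), Lrp8, a lipoprotein receptor, at 0.42 ± 0.22 and Scarb1, the HDL receptor, at -0.41 ± 0.12 (SD, n = 3, limma adjusted p = 0.0304 and 0.00942). In lung 2 rose and 2 fell (median -0.107), with Mylip, a ubiquitin ligase induced by LXR, at 1.03 ± 0.16, Scarb1 at -0.59 ± 0.03 and the receptor gene Vldlr at 0.91 ± 0.40 (limma adjusted p = 0.000444, 0.000658 and 0.00189). Vldlr was not well above background in either channel of any bone marrow array. Of 12 genes of the LXR response, export and storage, 1 rose and 1 fell in bone marrow (median -0.067), Plin2, which coats lipid droplets, at 0.65 ± 0.49 and Cyp27a1, a sterol hydroxylase of mitochondria, at -0.54 (limma adjusted p = 0.0338 and 0.0199). In lung 7 of the 12 rose and 1 fell (median 0.497). Ch25h, a hydroxylase of cholesterol, was at 2.05, Abca1, the exporter of cholesterol to apolipoproteins, at 2.04 and Apoe, a carrier of exported cholesterol, at 2.17 (limma adjusted p = 6.96e-06, 1.39e-05 and 0.00126). In bone marrow Ch25h was well above background on 0 of 3 mock and 0 of 3 treated samples, and Abca1 on 0 and 1. Their bone marrow ratios were thus read near background. Apoe is also 1 of the 10 macrophage markers that rose in lung, with the summed levels given above.

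Of 22 other genes of fatty acid and triglyceride synthesis, 3 rose and 3 fell in bone marrow (median -0.018). Elovl7, an elongase, was at 0.55, Dgat1, which makes triglyceride, at 0.56 and Elovl1, an elongase of very long chains, at -0.43 (limma adjusted p = 0.00379, 0.0089 and 0.0165). In lung 7 rose and 1 fell (median 0.242), with Dgat1 at 0.97, Thrsp, a lipogenic nuclear protein, at 0.46 and Acsl4, which activates arachidonic acid, at 0.61 (limma adjusted p = 0.000292, 0.00164 and 0.00167). Thrsp was read near background, with mock lung levels of 6.56, 6.65 and 6.59, well above it on 2 of 3 mock and 3 of 3 treated lung samples. Of 14 genes of fatty acid oxidation, 3 rose and 1 fell in each tissue, with medians of 0.003 in bone marrow and 0.100 in lung. Etfdh, which passes electrons of oxidation to the respiratory chain, rose in both tissues, by 0.46 with an SD of 0.02 in bone marrow and by 0.29 with an SD of 0.09 in lung (limma adjusted p = 0.00507 and 0.00865). Slc25a20 (the carnitine carrier) at 0.43 and Acadl (long-chain dehydrogenase) at 0.60 rose in bone marrow (limma adjusted p = 0.00612 and 0.00825). In lung Pdk4, a kinase that spares glucose, was at 0.41 and Acaa2, a thiolase, at -0.30 (limma adjusted p = 0.00298 and 0.0118).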

How the data were processed

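The members and gene lists were chosen with earlier results of these data known. Intensity values of Agilent spots, per the file headers, make up the deposited scanner files (raw, background and processed, with probe positions on mm9). The deposited matrices hold log2 ratios, made by the authors with limma per the submitters' processing notes. Their values equal Cy5 over Cy3 after normexp and loess of median signals (correlation of 0.9995 or more on each array), against their headings.

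Here mean signals were corrected by normexp (offset 50, median local background) and loess in limma 3.58.1 (R 4.3.3), with control spots at weight 0, outlier spots left out and spots of 1 probe averaged. A probe was kept when above background, by the scanner mark, on 2 or more arrays of a tissue in 1 channel (27693 of 39429), with the brightest probe per gene, giving 22096 genes. Of the probes, 26581 were named by RefSeq accession, 2597 by symbol and 492 by synonym. All 6 arrays were fitted with 1 mean per tissue in limma (4 residual and 3.52 prior degrees of freedom). The spread of a gene is thus shared by both tissues. Mock levels are Cy3 after loess and Aquantile. Adjusted p values are Benjamini-Hochberg over all genes tested. Errors are SDs over 3 arrays. Exons and UTRs were not analysed here, and overlapping probes of a gene share sequence.

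Values of each array are given for up to 6 passing members per list and comparison and for 12 regulators and key enzymes, and up to 3 passing genes (smallest p) of each other list are named, except that some items are not reported here. The fit was tested on simulated data. Alternatives changed background, dim-probe filter, probe choice, centring, scaling, source of values, fit, replicate block and arrays.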

Additional observations from a re-analysis of the deposited data

Results flagged for a closer look

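The lung response minus the bone marrow response passed limma's test for 6 of the 32 genes. That is 18.8% of them, against 15.2% of all genes tested, and each is given because it passed. Over the alternatives run, the call was kept in 14 of 15 for Idi1, 13 of 15 for Insig1 and 10 of 15 for Fads1. For Fads2 it was kept in 7 of 14, for Insig2 in 6 of 15 and for Acly in 2 of 15. Idi1 differed by -0.66 (adjusted p = 0.00351), with 3 of 3 bone marrow arrays above 0 and 0 of 3 lung arrays above 0. Insig1 differed by -0.54 (adjusted p = 0.0127), with all arrays of both tissues below 0. Fads1 differed by 0.70 (adjusted p = 0.0134) and Insig2 by 0.48 (adjusted p = 0.0448), with all arrays of both tissues above 0. Fads2 differed by -0.72 (adjusted p = 0.0354), with a lung level at background in mock cells. Acly differed by 0.38 (adjusted p = 0.0497), with 0 of 3 bone marrow arrays and 1 of 3 lung arrays above 0. Tissue and slide cannot be told apart.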

How the results depend on the processing

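Main counts of called genes are 4 (bone marrow), 9 (lung), 3 (difference between tissues) and 17 (mock) in the cholesterol list, and 4, 4, 3 and 7 in the fatty acid list. With median centring they were 0, 1 and 0 in the cholesterol list and 0, 1 and 0 in the fatty acid list. Processed signals gave 3 cholesterol calls in lung and 1 fatty acid call in the difference. The difference in the fatty acid list also had 1 call with the stricter filter, with the mean of probes and with scaling between arrays, which gave 2 cholesterol calls in bone marrow. Leaving out 1 replicate gave 1 to 5 and 2 to 4 calls in bone marrow, 4 to 11 and 3 to 5 in lung, 2 to 3 and 0 to 2 in the difference, and 14 to 16 and 5 to 7 in mock cells. Directions turned for Acly in bone marrow (0.20, median centring), for Srebf2 in lung (-0.01, mean of probes) and in mock cells (0.01, mean of probes). Centring the mock channel on its median turned Scap (0.77), Srebf2 (0.38), Fdps (0.44), Fdft1 (0.48), Mvk (0.52), Pmvk (0.91), Ebp (0.54), Tm7sf2 (0.24), Scd2 (0.94) and Acaca (0.58). The cause was not tested. Over all genes the main counts of 3180 (bone marrow), 7510 (lung) and 3368 (difference) became 0, 963 and 33 with median centring. In bone marrow they were 6464 with processed signals, 6054 with the background of negative control spots, and 995 to 4078 without 1 replicate, and in the difference 1504 to 2848 without 1 replicate. Of the values of called members under alternatives, 98 of 119 kept their call in bone marrow, 151 of 194 in lung, 52 of 89 in the difference and 292 of 334 in mock cells. Same-numbered samples of the tissues did not deviate together (correlations of 0.00, 0.12 and 0.05 for ratios and -0.15, -0.08 and -0.07 for mock levels). With the replicate block the calls for the difference of Insig2 (0.48, adjusted p = 0.0846) and Acly (0.38, adjusted p = 0.085) ended, and 2859 genes passed in the difference and 13544 in mock cells. Negative control spots after correction read 290 in Cy5 of bone marrow replicate 1, 137 in lung replicate 2 and 63.3 to 66 on the others.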
